A study of Mus musculus with 73 samples.

Results

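Sftpc, Abca3, Cyp2f2, Cbr2, Scgb3a1 and Inmt are 6 genes known from the epithelium and gas exchange tissue of the mouse lung, and they are described here across tumors and normal tissues of lung, prostate, seminal vesicle and mammary gland. They were chosen by name, through the gene symbols paired with the array features, and they are carried by 7 of the 9596 features (6 of the 6777 genes with a value on the reference arrays). Abca3 has 2 features and each other gene has 1.

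Surfactant protein C (Sftpc) is a defining product of alveolar type 2 cells, which line the alveoli and secrete surfactant, a lipid and protein film that keeps them open. Abca3 is the transporter that loads phospholipid into the lamellar bodies where type 2 cells store surfactant. Club cells are secretory cells of the conducting airways, and in mice they carry the cytochrome P450 Cyp2f2, which activates naphthalene, and the carbonyl reductase Cbr2. Scgb3a1 is a small secreted protein of the secretoglobin family, made by airway secretory cells. Inmt methylates tryptamine and related amines, is abundant in lung, and is not a defining marker of either cell type.

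RNA was measured on 2-colour cDNA microarrays. On 35 reference arrays, tissue RNA (Cy3) was set against Stratagene Universal Reference RNA (Cy5), so each value is the log2 ratio of the tissue over that reference and says how far 1 gene differs between tissues, not which of 2 genes is more abundant. The FVB samples are 4 lung tumors of CC10/SV40 T/t-antigen mice, 4 normal lungs, 4 mammary tumors of C3(1)/SV40 T/t-antigen mice and 4 normal mammary glands. The C57BL/6 samples are 5 prostate tumors and 6 seminal vesicle tumors of TRAMP mice, labelled PB/SV40 T/t-antigen, with 4 normal prostates and 4 normal seminal vesicles. All normal tissues are labelled wild-type and all tumors carry SV40 T/t-antigen, which inactivates p53 and Rb. The transgene is driven in lung by the promoter of CC10, the club cell gene now called Scgb1a1, and in TRAMP mice by the prostate promoter of probasin. Strain cannot be told apart from site between the 2 pairs of sites. On 38 further arrays, of 8 mammary models, RNA of a tumor (Cy5) and of normal gland (Cy3) shared the array, with no reference RNA. No label says whether the samples of a group are separate animals, so p-values measure the spread between samples, which may be technical.

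Each of the 7 features held a value on all 35 reference arrays, and array medians lay between -0.047 and 0.0087. The lung labels were checked with lung epithelium markers other than the 6 genes: 27 of 31 were higher in normal lung than in the other 3 normal tissues averaged. Skeletal muscle transcripts differed at the prostate, with a mean log2 ratio over 16 muscle genes of -0.13 to 0.14 on the 5 prostate tumor arrays, against 3.69 to 4.55 on the 4 normal prostate arrays. In normal mammary gland the same mean ran from -0.16 to 3.13.

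The sequences just before the start sites are shown for the 4 genes that fell in lung tumors and had a promoter sequence at hand (GRCm38.p6). The promoter sequences used here covered 5 of the 6 genes and lacked Sftpc. Each is the 250 bases before the start, read 5′ to 3′ on the strand of the gene. Capitals mark TCAAG or its reverse complement CTTGA, the core letters of sites bound by NKX2-1, a transcription factor of lung epithelium.
Cyp2f2, chr7:27119705-27119954, plus strand: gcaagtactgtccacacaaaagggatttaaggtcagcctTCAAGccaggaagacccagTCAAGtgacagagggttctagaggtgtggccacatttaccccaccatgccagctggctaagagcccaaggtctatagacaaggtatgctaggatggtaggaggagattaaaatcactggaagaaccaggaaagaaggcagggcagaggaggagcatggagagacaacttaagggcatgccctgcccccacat
Cbr2, chr11:120732022-120732271, minus strand: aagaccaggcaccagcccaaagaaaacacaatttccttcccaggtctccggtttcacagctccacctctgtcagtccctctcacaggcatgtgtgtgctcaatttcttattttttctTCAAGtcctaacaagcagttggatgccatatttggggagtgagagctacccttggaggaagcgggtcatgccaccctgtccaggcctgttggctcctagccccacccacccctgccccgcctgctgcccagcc
Scgb3a1, chr11:49663345-49663594, plus strand: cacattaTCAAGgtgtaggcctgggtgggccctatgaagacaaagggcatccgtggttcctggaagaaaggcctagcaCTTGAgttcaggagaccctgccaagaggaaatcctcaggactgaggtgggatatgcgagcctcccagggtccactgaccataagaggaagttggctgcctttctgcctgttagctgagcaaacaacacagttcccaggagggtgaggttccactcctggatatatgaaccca
Inmt, chr6:55174991-55175240, minus strand: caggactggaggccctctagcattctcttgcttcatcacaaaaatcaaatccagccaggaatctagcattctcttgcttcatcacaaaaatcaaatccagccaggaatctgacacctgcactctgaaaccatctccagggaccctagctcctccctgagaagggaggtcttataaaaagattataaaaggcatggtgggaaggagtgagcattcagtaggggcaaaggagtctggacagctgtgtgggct
The letters occurred 2 times before Cyp2f2, 1 time before Cbr2 and 2 times before Scgb3a1, and not before Inmt or Abca3. They are short and common: 35.8% of 32536 mouse windows of the same length held them on 1 or the other strand. The FOXA letters TGTTTAC, held by 3.17% of windows, and the androgen and glucocorticoid receptor half-site AGAACA, held by 5216 windows (16%), were in none of the 5 windows on either strand. The motifs were chosen after the expression values were known, and a match is not a measured binding site.

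In the levels over the 8 tissue groups, normal lung came first for Sftpc, Cyp2f2, Cbr2, Scgb3a1, Inmt and 1 of the Abca3 features. The groups behind it differed from gene to gene. Normal prostate was next for Cyp2f2 and Cbr2, mammary gland for Scgb3a1, and for Sftpc no group outside lung had an array above 0.59.

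**Figure D1:**
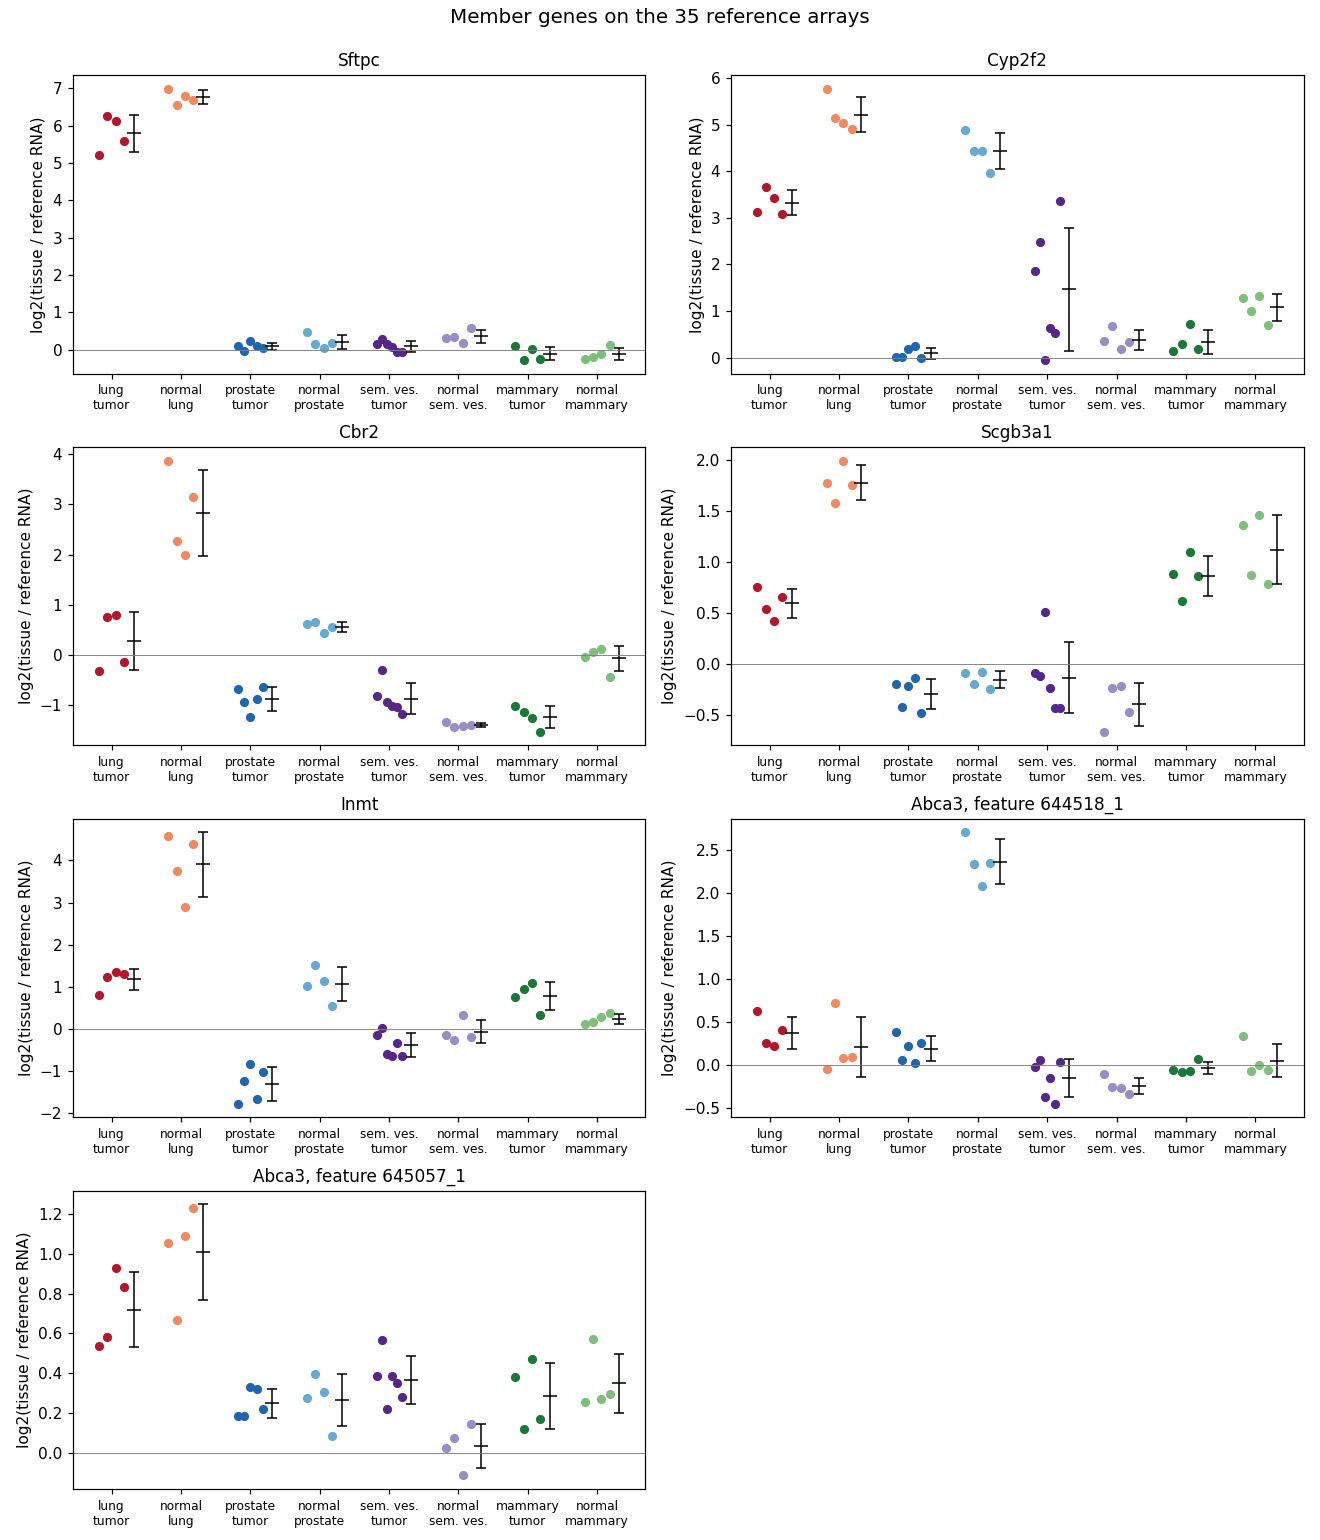
Log2 ratio of tissue over reference RNA (y axis) for each of the 7 features on the 35 reference arrays; each point is 1 array, tumors stand left of the normal tissue of their site, and the black mark beside each group is its mean with its SD. Sftpc is high only in lung tumor and normal lung, Cyp2f2 also in normal prostate and on 3 of 6 seminal vesicle tumor arrays, and the 2 Abca3 features differ, with 2.08 to 2.71 against 0.08 to 0.40 in normal prostate.

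Sftpc was the most lung-restricted of the 6 genes by its levels. It had log2 ratios of 5.21, 6.26, 6.12 and 5.60 in lung tumors, against 6.99, 6.55, 6.80 and 6.70 in normal lung. All lung tumor arrays lay below all normal lung arrays, and outside lung its 27 values ran from -0.26 to 0.59. The highest group outside lung was normal seminal vesicle (0.36 ± 0.17, SD, n = 4), and the groups from there down overlapped their neighbours in the order. On all 4 normal lung arrays and on 3 of 4 lung tumor arrays its ratio was the highest of all features.

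Cyp2f2 was high in 2 normal tissues. It had log2 ratios of 3.13, 3.66, 3.42 and 3.08 in lung tumors, against 5.77, 5.15, 5.02 and 4.91 in normal lung. It had 0.02, 0.02, 0.20, 0.24 and 0.00 in prostate tumors, against 4.89, 4.44, 4.43 and 3.95 in normal prostate. Every lung tumor array lay below every array of both normal tissues, and prostate tumors had the lowest mean of the 8 groups and overlapped mammary tumors. Among the features of a normal prostate array its ratio ranked between 14th and 25th, and among those of a normal lung array between 5th and 8th.

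Cbr2 was highest in normal lung. It had -0.31, 0.76, 0.81 and -0.13 in lung tumors, against 3.87, 2.28, 2.00 and 3.15 in normal lung. Normal prostate, at 0.62, 0.65, 0.43 and 0.55, had the second highest mean and overlapped lung tumors. Prostate tumors, seminal vesicle tumors, mammary tumors and normal seminal vesicle all had means below the reference, at -0.87 ± 0.24 (SD, n = 5), -0.87 ± 0.31 (SD, n = 6), -1.23 ± 0.22 (SD, n = 4) and -1.39 ± 0.04 (SD, n = 4). Neighbours among these 4 overlapped.

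Inmt was also highest in normal lung. It had 0.80, 1.24, 1.35 and 1.29 in lung tumors, against 4.57, 3.75, 2.89 and 4.40 in normal lung. Prostate tumors were lowest of all, at -1.78, -1.23, -0.84, -1.67 and -1.03, against 1.01, 1.52, 1.14 and 0.54 in normal prostate, and stood apart from every other group. Lung tumors, normal prostate and mammary tumors (0.33 to 1.08) overlapped from one to the next.

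Scgb3a1 followed another order, with mammary gland in place of prostate. It had 1.77, 1.57, 1.99 and 1.76 in normal lung, ahead of mammary tumors at 0.62 to 1.09 and normal mammary gland at 0.79 to 1.46. In normal prostate it lay at -0.09, -0.19, -0.08 and -0.24. Prostate tumors, seminal vesicle tumors and normal seminal vesicle overlapped normal prostate.

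The 2 Abca3 features disagreed. Feature 644518_1 was high in normal prostate, at 2.71, 2.33, 2.08 and 2.35, and between -0.45 and 0.73 on the other 31 arrays. Feature 645057_1 was highest in lung, at 0.54, 0.58, 0.93 and 0.83 in lung tumors and, overlapping them, 1.05, 0.67, 1.09 and 1.23 in normal lung. It had 0.28, 0.40, 0.31 and 0.08 in normal prostate. Over the 35 arrays the Pearson r between the 2 features was -0.04, as a description of arrays that share tissues. Their mean, used where the test was run per gene, therefore describes neither of them.

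**Figure D2:**
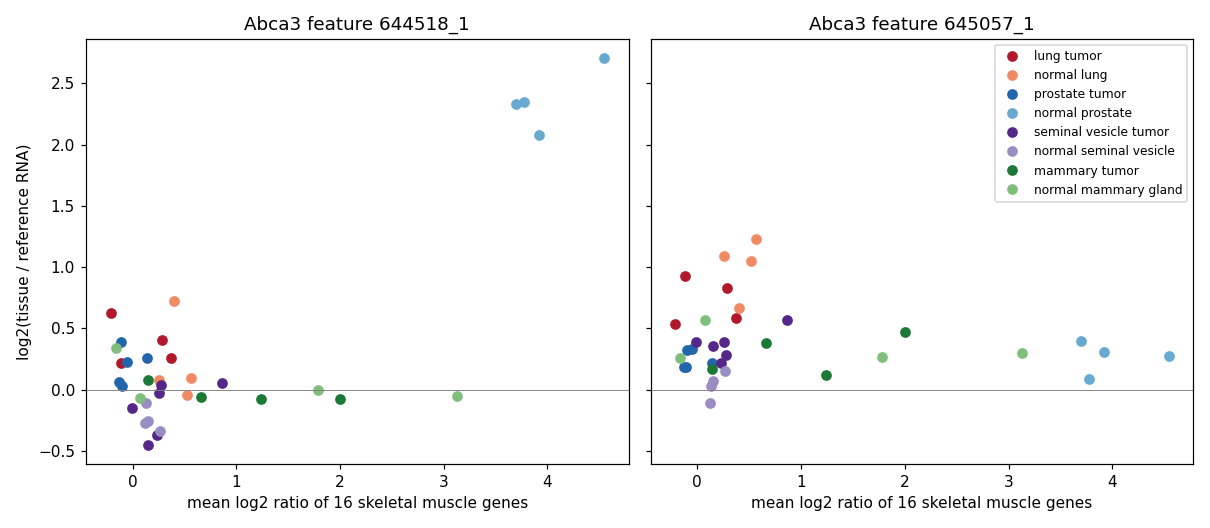
Log2 ratio of each Abca3 feature (y axis) against the mean log2 ratio of 16 skeletal muscle genes on the same array (x axis); each point is 1 of the 35 reference arrays, coloured by group. Feature 644518_1 is above 2 only on the 4 normal prostate arrays, while the normal mammary gland array with a muscle mean of 3.13 has -0.05.

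Feature 644518_1 and the muscle genes were both high in normal prostate. Over all 35 arrays the Pearson r of this feature with the muscle mean was 0.79, and over the 31 arrays without normal prostate it was -0.18. Most like the mean of the 2 Abca3 features was Myl3, a myosin light chain of slow muscle and heart (r = 0.93, and 0.97 over the 8 group means). The phosphatase gene Pptc7 (r = 0.90) and the small GTPase gene Rab33a (r = 0.88) came next. Alike genes were not sought for either feature alone. On the normal mammary gland array with the highest muscle mean, 3.13, feature 644518_1 had -0.05. The part of muscle RNA in the normal prostate value was not tested.

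The first comparison between normal tissues asked how the 6 genes differ between lung and prostate, from different strains. Normal lung was higher than normal prostate for Sftpc by 6.55 ± 0.15 on the log2 scale (SE), a 93.7-fold difference and the largest of 6767 genes. Inmt was higher by 2.85 ± 0.26, Cbr2 by 2.26 ± 0.26 and Scgb3a1 by 1.92 ± 0.16, with limma adjusted p-values of at most 1.8e-08. These 4 of 6 calls stand beside 22.6% of all genes tested that were higher in normal lung, at a Benjamini-Hochberg adjusted p under 0.05 over all genes. Abca3 was lower by 0.71 ± 0.08 as the mean of its features, beside 17.9% of all genes that were lower. Its features pointed opposite ways, -2.15 ± 0.14 for 644518_1 and 0.74 ± 0.11 for 645057_1, and both passed at feature level. Cyp2f2 differed by 0.78 ± 0.40 and did not pass (limma adjusted p = 0.12), although every normal lung array lay above every normal prostate array. The fit pools the spread of all 8 groups, among them the seminal vesicle tumors, where Cyp2f2 had an SD of 1.31. Fitted on these 2 groups alone the same difference passed.

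Within the C57BL/6 strain, normal prostate was set against normal seminal vesicle. Cyp2f2 was higher in prostate by 4.04 ± 0.40 (16.5-fold), Cbr2 by 1.95 ± 0.26, Abca3 by 1.42 ± 0.08 and Inmt by 1.12 ± 0.26, with limma adjusted p-values of at most 0.00051. These 4 of 6 calls stand beside 24.6% of all genes. The Abca3 value rested on feature 644518_1 (2.61 ± 0.14), while 645057_1 differed by 0.23 ± 0.11 and did not pass. Sftpc (-0.15 ± 0.15) and Scgb3a1 (0.24 ± 0.16) did not pass. No run of array numbers held both groups, so tissue and run cannot be told apart from these 2 groups alone. With the runs of array numbers as a fixed factor, the Inmt difference was 0.54 and no longer passed.

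Within FVB, all 6 genes were higher in normal lung than in normal mammary gland, beside 12.6% of all genes. The differences were 6.87 ± 0.15 for Sftpc, 4.13 ± 0.40 for Cyp2f2, 3.67 ± 0.26 for Inmt and 2.89 ± 0.26 for Cbr2. They were smaller for Scgb3a1 (0.65 ± 0.16, limma adjusted p = 0.0016) and Abca3 (0.41 ± 0.08, limma adjusted p = 0.00027). Of the Abca3 features 645057_1 passed (0.66 ± 0.11) and 644518_1 did not (0.16 ± 0.14). Sftpc, Cyp2f2, Inmt and Cbr2 ranked 1st, 3rd, 5th and 10th among 6770 genes by the size of this difference.

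Normal prostate was also set against normal mammary gland, across strains. Cyp2f2 was higher in prostate by 3.35 ± 0.40 (10.2-fold), Abca3 by 1.12 ± 0.08, Inmt by 0.82 ± 0.26 and Cbr2 by 0.63 ± 0.26. The Abca3 value rested on feature 644518_1 (2.32 ± 0.14), while 645057_1 stood at -0.08 ± 0.11 and did not pass. The 4 calls stand beside 19.2% of all genes, and that of Cbr2 was close to the threshold (limma adjusted p = 0.049) and was lost when any 1 of the 8 arrays was left out, with differences from 0.51 to 0.70. Scgb3a1 was lower in prostate by 1.27 ± 0.16 on the log2 scale, beside 26.4% of all genes. Sftpc stood at 0.32 ± 0.15 and did not pass, and without normal mammary gland array 4 it stood at 0.40 and passed.

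In lung tumors, 5 of the 6 genes were lower than in normal lung, beside 20.4% of all genes tested. Inmt and Cbr2 changed most, followed by Cyp2f2, with Sftpc and Scgb3a1 the least of the 5.

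**Figure D3:**
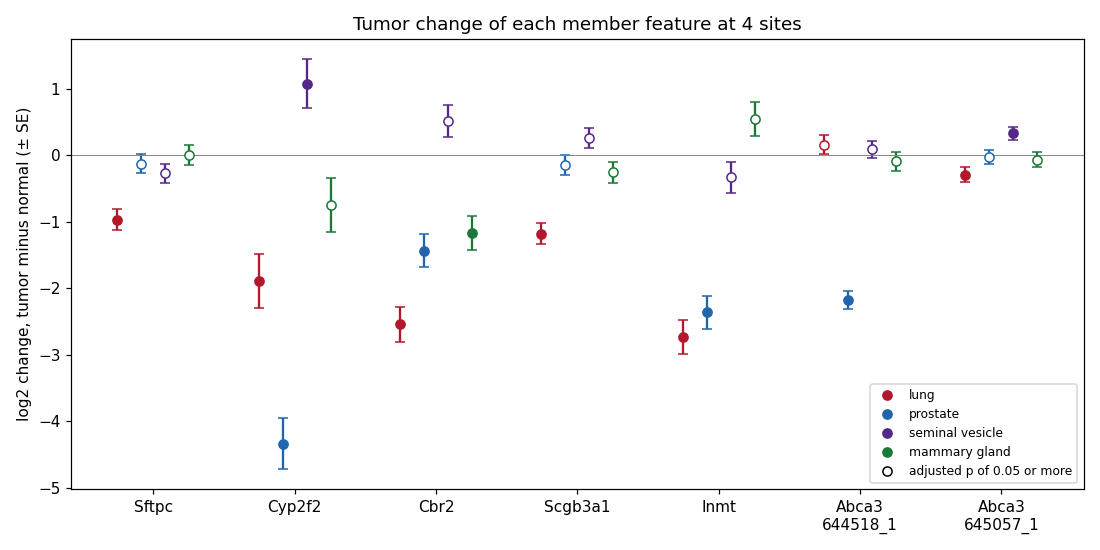
Log2 change of each member feature, tumor minus normal (y axis), at the 4 sites; points are limma estimates, bars are 1 SE, filled points passed at an adjusted p under 0.05 over all features and open points did not. All features other than Abca3 644518_1 fell in lung tumors, and Cyp2f2 fell by 4.33 in prostate tumors.

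Inmt fell by 2.73 ± 0.26 on the log2 scale in lung tumors (6.65-fold lower, limma adjusted p = 5.3e-10), the 5th largest fall of 6774 genes. Cbr2 fell by 2.54 ± 0.26 (5.82-fold, 8th largest). Cyp2f2 fell by 1.89 ± 0.40 (3.70-fold). For these 3 genes the highest lung tumor array lay below the lowest normal lung array, as it did for Sftpc and Scgb3a1. The same held for 1279 of all 6774 genes tested.

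Scgb3a1 fell by 1.18 ± 0.16 in lung tumors, with 0.76, 0.54, 0.43 and 0.65 against 1.77, 1.57, 1.99 and 1.76 in normal lung. Sftpc fell by 0.96 ± 0.15 (1.95-fold, limma adjusted p = 6.2e-06) and stayed far above every tissue other than lung. With quantile normalization the falls of Sftpc and Cyp2f2 were 0.13 and 0.46 in size, both downward, and neither passed. That normalization sets the highest ranks of all arrays equal, and among features Sftpc held rank 1 on 7 of the 8 lung arrays. The part of this in the smaller falls was not tested. Abca3 changed by -0.06 ± 0.08 as a mean and did not pass, while its feature 645057_1 alone fell by 0.29 ± 0.11 (limma adjusted p = 0.042 over features).

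Genes listed for lung epithelial cells fell with them, from lists that leave the 6 genes out. The type 2 list is not particular to lung. Its mean log2 ratio was 1.57 in normal mammary gland, 1.34 in lung tumors and 2.18 in normal lung. Its genes Lyz2 and Cebpa also stand in the leukocyte and the adipocyte list. The club cell list is not particular to lung either. Its mean log2 ratio was 1.03 in normal mammary gland, 1.00 in normal prostate, 1.74 in lung tumors and 2.22 in normal lung. Of 13 measured alveolar type 2 genes 11 fell and none rose, with a median change of -0.67, beside a median of -0.06 over all genes. The falls included the chitinase-like protein gene Chil1 (-1.61 ± 0.23), the phosphate transporter Slc34a2 (-1.38 ± 0.23) and the surfactant protein protease Napsa (-1.10 ± 0.21). Of 7 alveolar type 1 genes 4 fell and 1 rose, the water channel Aqp5 (0.66 ± 0.20), and the caveolar protein gene Cav1 fell by 2.36 ± 0.22. Of 11 club cell genes 5 fell (median -0.45), led by Selenbp1 (-1.06 ± 0.21), Ces1d (-1.05 ± 0.25) and the aldehyde dehydrogenase Aldh1a1 (-0.86 ± 0.20). The CC10 gene Scgb1a1, whose promoter drives the transgene, had 5.45 ± 0.19 in lung tumors and 5.60 ± 0.80 in normal lung (SD, n = 4 each) and did not pass (limma adjusted p = 0.75).

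Genes of other cells of the lung moved in the same comparison. Of 12 endothelial genes 11 fell, with array means of 0.34 to 0.65 in lung tumors and 1.32 to 2.02 in normal lung. Of 12 fibroblast genes 9 fell, with array means of -1.46 to -1.15 in tumors and -0.17 to 0.12 in normal lung, and of 12 leukocyte genes 10 fell. All 21 division genes rose. The part of these in the falls of the 5 genes was not tested. In pieces of tissue, fewer cells of a type and less RNA per cell cannot be told apart. Both groups share a run of array numbers, and within it, with 3 arrays each, the same 5 genes passed, with changes from -0.99 for Sftpc to -2.57 for Inmt.

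In prostate tumors, 4 of the 6 genes were lower than in normal prostate, beside 32.2% of all genes. Cyp2f2 fell by 4.33 ± 0.38 (20.2-fold lower, limma adjusted p = 1.6e-11), the 16th largest fall of 6767 genes. Inmt fell by 2.36 ± 0.24 (5.14-fold), with -1.78 to -0.84 in prostate tumors against 0.54 to 1.52 in normal prostate. Cbr2 fell by 1.43 ± 0.25 (2.69-fold), with -1.23 to -0.63 in tumors and 0.43 to 0.65 in normal prostate. Every tumor array lay below every normal one for these 3 genes, as it did for 1935 of all 6767 genes tested. Of the tumor arrays 4 lie in a run of array numbers without normal prostate. The remaining 1 shares a run with 3 normal arrays. Within that run the changes were -4.59 for Cyp2f2, -2.25 for Inmt and -1.20 for Cbr2.

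Abca3 fell by 1.10 ± 0.08 in prostate tumors as the mean of its features. Feature 644518_1 fell by 2.18 ± 0.14, with 0.38, 0.06, 0.22, 0.03 and 0.26 in tumors against 2.71, 2.33, 2.08 and 2.35 in normal prostate. Feature 645057_1 changed by -0.02 ± 0.11 and did not pass. The 16 skeletal muscle genes all fell in this comparison, with a median of -4.06 and myoglobin (Mb) at -5.70 ± 0.47. Sftpc (-0.12 ± 0.14) and Scgb3a1 (-0.14 ± 0.15), both near the reference in either group, did not pass.

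Of the other club cell genes, 8 of 11 fell in prostate tumors and 2 rose (median -1.78, beside -0.03 over all genes). Aldh1a1 fell by 3.13 ± 0.19, the glutathione transferase Gsta4 by 2.54 ± 0.20 and the keratin Krt15, which basal cells also carry, by 1.78 ± 0.13. Scgb1a1, at 0.41 ± 0.44 (SD, n = 5) in tumors and 2.23 ± 0.60 (SD, n = 4) in normal prostate, fell by 1.81 ± 0.30. The array means of the club cell list were -0.36 to -0.13 in prostate tumors and 0.90 to 1.09 in normal prostate. The array means of the 13 other type 2 genes were -0.37 to -0.06 in prostate tumors and 0.11 to 0.29 in normal prostate, and those of the 7 type 1 genes were -0.54 to -0.37 in tumors and 0.43 to 0.52 in normal prostate. Type 1 genes differed among themselves in normal prostate, where Aqp5 had 2.05 ± 0.29, Clic5 1.96 ± 0.12 and Ager -0.20 ± 0.39 (SD, n = 4 each). Of 4 secretory genes of prostate and seminal vesicle 3 fell, the kallikrein Klk1 by 1.32 ± 0.12, Azgp1 by 0.98 ± 0.25 and Spink1 by 0.80 ± 0.30, and of 8 smooth muscle genes 7 fell. Of 11 adipocyte genes 10 fell (median -1.37), with array means of -0.14 to 0.07 in prostate tumors and 1.40 to 1.63 in normal prostate. Of 12 endothelial genes 7 fell and 1 rose, and of 12 fibroblast genes 6 fell and 1 rose. All 5 measured neuroendocrine genes rose (median 2.26), as did 20 of 21 division genes. The part of each of these in the falls of Cyp2f2, Inmt, Cbr2 and Abca3 was not tested.

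Cyp2f2 belongs to a family of cytochromes P450 with similar sequences, and its 3 most alike genes over the arrays were family members. They were Cyp2b10 (r = 0.91 over 34 arrays), Cyp2b9 (r = 0.88 over 35) and Cyp2a12 (r = 0.86 over 35), and over the 27 arrays without lung the values were 0.83, 0.79 and 0.84. Cyp2b10 fell by 3.19 ± 0.28 in prostate tumors and by 1.05 ± 0.30 in lung tumors. In mammary tumors, with a value on 3 tumor arrays, Cyp2b10 rose by 1.13 ± 0.32 (limma adjusted p = 0.0059), where the SE pools the spread of all 8 groups. The tumor values of 0.22, 1.38 and 2.22 overlapped those of normal mammary gland, -0.21 to 0.71. Cyp2f2 stood at -0.74 ± 0.40 in mammary tumors and did not pass. Whether RNA of one member reached the feature of another was not tested. In seminal vesicle tumors Cyp2b10 had 0.63, 1.52, 0.27, 0.10, 0.30 and 0.78 on arrays 1 to 6. Its change of 0.15 ± 0.27 at that site did not pass.

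In seminal vesicle tumors, 2 of the 6 genes passed upward, beside 23.3% of all genes. Cyp2f2 had 1.85, 2.48, -0.05, 0.63, 0.52 and 3.36 in tumors, against 0.35, 0.68, 0.18 and 0.33 in normal seminal vesicle. Tumor arrays 1, 2 and 6 lay above every normal array while arrays 4 and 5 lay among them and array 3 below them. The difference of 1.08 ± 0.37 passed (limma adjusted p = 0.018), and it did not without tumor array 2 (0.88), tumor array 6 (0.70) or normal array 3 (1.01). The SDs were 1.31 in tumors and 0.21 in normal seminal vesicle. The SE pools the spread of all 8 groups and so is not that of these groups alone. Abca3 rose by 0.21 ± 0.08 (limma adjusted p = 0.026), through feature 645057_1 (0.33 ± 0.10) and not 644518_1 (0.09 ± 0.13). It no longer passed without tumor array 1 (0.20), tumor array 2 (0.17) or normal array 3 (0.18). Cbr2 stood at 0.52 ± 0.24 and did not pass. Of 11 other club cell genes 5 rose and none fell, with array means of 0.65 to 1.14 in seminal vesicle tumors and 0.30 to 0.51 in normal seminal vesicle. Genes of other cells moved too: 9 of 12 fibroblast genes rose and 1 fell (median 1.42), 4 of 8 smooth muscle genes rose, and 18 of 21 division genes rose and 2 fell. The fibroblast array means were -0.66 to 0.49 in tumors and -1.38 to -1.21 in normal seminal vesicle. The part of these in the rises of Cyp2f2 and Abca3 was not tested. Every tumor of this site lies in another run of array numbers than the normal seminal vesicles, and with runs as a fixed factor none of the 6 genes passed.

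In mammary tumors, Cbr2 alone passed, beside 20.1% of all genes that fell. It had -1.02, -1.12, -1.26 and -1.52 in mammary tumors against -0.03, 0.07, 0.13 and -0.43 in normal mammary gland, a fall of 1.16 ± 0.26 (limma adjusted p = 0.0006). Cyp2f2 (-0.74 ± 0.40) and Inmt (0.55 ± 0.26) did not pass in the fit of all groups. Within the run of array numbers that holds 3 arrays of each group both passed, Cyp2f2 at -0.82 and Inmt at 0.74 (limma adjusted p = 0.044). All 11 adipocyte genes fell in mammary tumors (median -2.28). Of 11 other club cell genes 8 fell and 1 rose (median -1.34, beside -0.02 over all genes). Of 13 other type 2 genes 7 fell and 1 rose. Of 12 endothelial genes 8 fell, and of 12 leukocyte genes 6 fell and 1 rose. Of 12 fibroblast genes 5 fell and 2 rose, and all 21 division genes rose. The part of these in the fall of Cbr2 was not tested.

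The change in tumors differed among the 4 sites for all 6 genes by the moderated F test, but so it did for 74.1% of all genes. The difference between the lung and the prostate change passed for 5 of the 6 genes, beside 41.2% of all genes. Cyp2f2 fell less in lung than in prostate, with a difference between the changes of 2.45 ± 0.56 (lung minus prostate), and Cbr2 fell more in lung (-1.11 ± 0.36). Scgb3a1 (-1.04 ± 0.22) and Sftpc (-0.84 ± 0.21) fell in lung, and their prostate changes of -0.14 and -0.12 did not pass. For Abca3 the difference of 1.03 ± 0.12 is that of the mean of its features and describes neither of them. Feature 644518_1 changed by 0.16 in lung (not passing) and fell by 2.18 in prostate. Feature 645057_1 pointed the other way, with -0.29 in lung and -0.02 in prostate (not passing). For Inmt the difference was -0.37 ± 0.35 and did not pass (limma adjusted p = 0.43), which does not show that the falls are equal. The lung and prostate changes come from different arrays, strains and transgenes.

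Over the 35 reference arrays the 6 genes did not form 1 pattern. The highest Pearson r among them was 0.86, between Cbr2 and Inmt, followed by 0.84 between Cyp2f2 and Cbr2. Without the 8 lung arrays these were 0.41 and 0.76, and that of Sftpc with Scgb3a1 was -0.57 in place of 0.59. These values describe arrays that share tissue groups.

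The genes most like each of the others were found by the same measure. For Sftpc they were the type 1 cell receptor Ager (r = 0.96, and 0.99 over the 8 group means), the chitinase gene Chia1 (0.95) and the chitinase-like macrophage gene Chil3 (0.94). Without lung these were -0.33, -0.29 and 0.26, so the likeness of Sftpc is that of 8 lung arrays to the rest. For Cbr2 they were the transcriptional corepressor Tle5 (0.97), Rhbdd2 (0.92) and the sulfotransferase Sult1d1 (0.91), and Tle5 kept 0.91 over the 27 arrays without lung. For Scgb3a1 they were the lysozyme gene Lyz2 (0.93), the plasminogen activator gene Plat (0.92) and Amotl2 (0.91), with 0.94, 0.89 and 0.85 without lung. For Inmt they were Gm4788 (0.93), the anchoring protein gene Akap2 (0.92) and Sult1d1 (0.90).

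The direct arrays give the tumor over normal ratio in mammary tumors of 8 models, for the 5 genes other than Scgb3a1, which has no value there. The models are MMTV-her2/neu, MMTV-PyMT, MMTV-ras, MMTV-myc and C3(1)/SV40 T/t-antigen in FVB, p53 null transplants in Balb/c, and p53fp/fp;WAP-cre and Brca1 Co/Co;MMTV-cre;p53 in C57BL6/129sv, with 4 or 5 arrays each. Dyes were not swapped, and variation among normal glands is not part of the test. Of 40 values, 1 per gene and model, 11 passed against 0. This share lies within the range of those over all genes, so the count does not set the 5 genes apart. In all genes 14.4% passed in p53 null, 22.7% in p53 floxed, 46.9% in Brca1 floxed, 46.2% in C3(1), 17.5% in her2/neu, 23.5% in myc, 20.2% in ras and 21.2% in PyMT tumors.

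**Figure D4:**
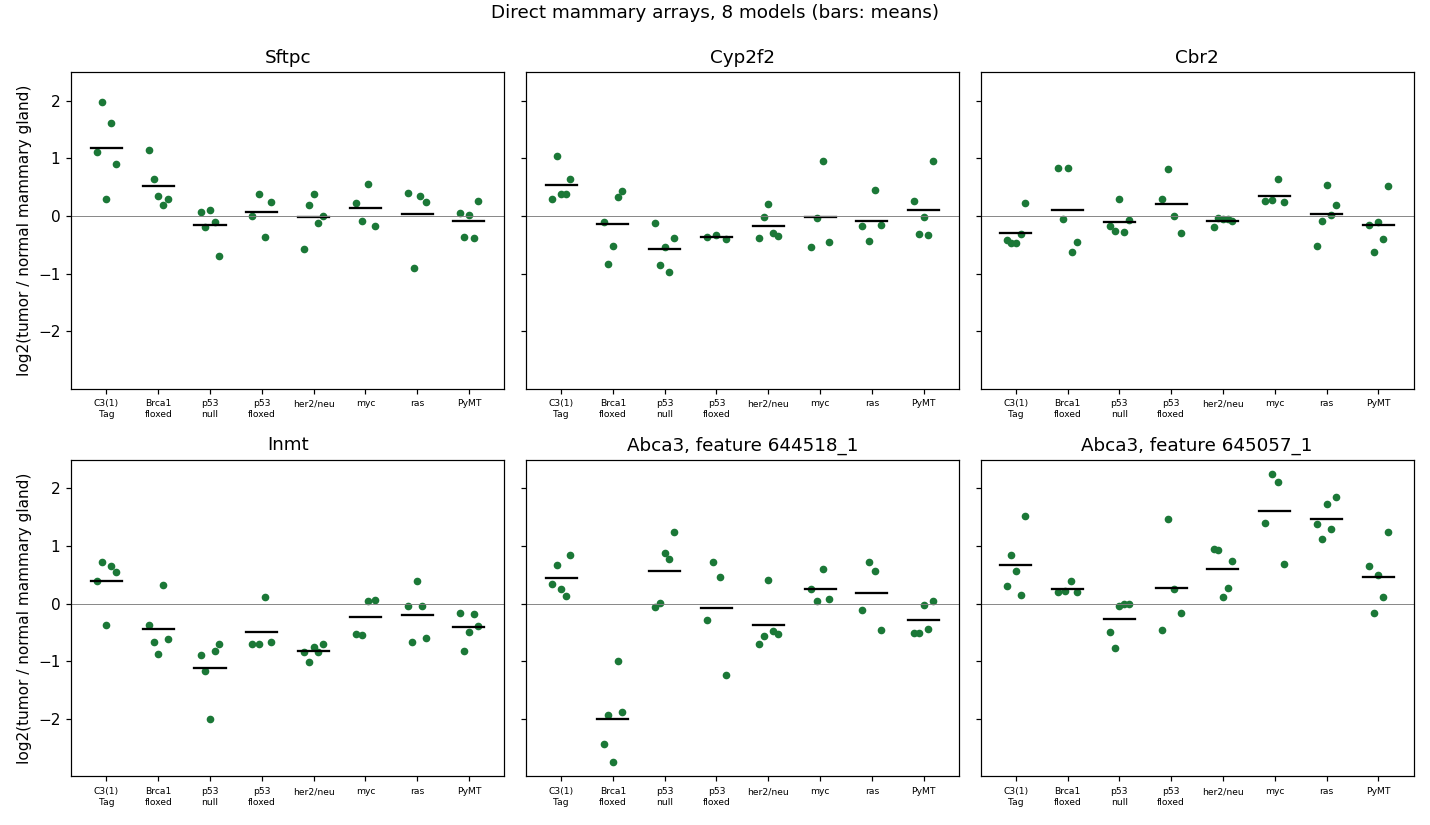
Log2 ratio of mammary tumor over normal mammary gland (y axis) on the direct arrays, by model (x axis); each point is 1 array and each bar the mean of the model. Inmt lies below 0 on all p53 null and her2/neu arrays, Sftpc above 0 on all C3(1) and Brca1 floxed arrays, and the 2 Abca3 features differ in the Brca1 floxed, myc and ras tumors.

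Inmt was lower in p53 null tumors, at -0.89, -1.16, -1.99, -0.83 and -0.70 (mean -1.11 ± 0.18, SE, limma adjusted p = 1.3e-05). It was lower in her2/neu tumors too, at -0.83, -1.01, -0.75, -0.84 and -0.70 (mean -0.83 ± 0.18). All 10 arrays were below 0. In Brca1 floxed tumors it fell by 0.44 ± 0.18, with 1 of 5 arrays above 0.

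Sftpc was higher in C3(1) tumors, at 1.11, 1.97, 0.29, 1.62 and 0.91 (mean 1.18 ± 0.19), where the median of all genes was 0.36. Centred on that median the value was 0.84 and still passed. In Brca1 floxed tumors Sftpc averaged 0.52 ± 0.19, with all 5 arrays above 0, and after centring 0.31, which did not pass. On the reference arrays Sftpc of C3(1) mammary tumors and normal mammary gland lay at -0.10 ± 0.18 and -0.11 ± 0.16 (SD, n = 4 each), near the reference in both.

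Cyp2f2 was lower in p53 null tumors (-0.57 ± 0.19) on all 5 arrays. In C3(1) tumors it had a direct ratio of 0.55 ± 0.19, which after centring was 0.21 and did not pass, while on the reference arrays its mammary change was -0.74 ± 0.40. Cbr2, the gene that fell in mammary tumors on the reference arrays, had a direct ratio of -0.29 ± 0.18 in C3(1) tumors, which did not pass, and -0.63 after centring, which did.

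Abca3 passed in 4 models as the mean of its features, and in 3 of them only 1 of the features passed while the other lay near 0 or on the other side of it. In the fourth, C3(1), the mean of 0.56 ± 0.23 was 0.23 after centring and no longer passed. In Brca1 floxed tumors 644518_1 had -2.43, -1.93, -2.74, -0.99 and -1.87, and 645057_1 had 0.21, 0.21, 0.40 and 0.21 on the 4 arrays with a value. In myc tumors 645057_1 had 1.40, 2.25, 2.10 and 0.69, and 644518_1 had 0.25, 0.05, 0.61 and 0.09. In ras tumors 645057_1 had 1.38, 1.13, 1.72, 1.29 and 1.85, and 644518_1 lay between -0.46 and 0.73 on the 4 arrays with a value. The other 29 of 40 means ran from -0.48 to 0.39 and did not pass.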

How the data were processed

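The authors deposited 1 log2 ratio for each feature on each array. Neither base nor direction is labelled. Read as log2, the interaction rule of the series text gave 2638 features, the number that text states (3770 as natural logarithms). Direction was taken from non-member markers: 11 of 11 adipocyte genes were higher in normal mammary gland. Direct arrays were read as tumor over normal (Pearson r 0.50 across 5750 genes, which are not replicates, with the reference C3(1) change). Image analysis, background correction and any filter are not given in the sources used here. The ratios carry no intensities, so weak signals could not be told from strong ones, and array number limits precision.

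Symbols came from the platform table, updated by gene ID through RefSeq (7486 features with 1 symbol, 7395 matched). Features of a gene were averaged. limma 3.58.1 (lmFit, eBayes) in R 4.3.3 fitted 8 group means on reference arrays and 8 model means on direct arrays, for genes with at least 3 values per group. Calls are at a Benjamini-Hochberg adjusted p under 0.05 over all genes. The fit was tested on simulated data. The 6 genes, gene lists and tests were chosen with earlier results of these data known, so they are no independent support. Named beyond the 6 genes were the 3 most alike genes of each (Pearson r over arrays, values on at least 30), and up to 3 passing genes of smallest p per list and tumor comparison. Scgb1a1, Ager, Aqp5 and the Cyp2 changes were added after their values were seen. Runs of array database numbers (a gap over 20 starts a run) gave 6 runs, used as batches. Same-numbered replicates did not deviate together (r from -0.24 to 0.22), so numbers do not pair samples. Alternatives were array centring, quantile normalization, blocks, feature level, other call rules and leaving out arrays.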

Additional observations from a re-analysis of the deposited data

Results flagged for a closer look

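The tumor change differed among the 4 sites for each of the 6 genes by limma's moderated F test, with adjusted p-values of 0.00079 for Sftpc, 8.12e-11 for Abca3, 3.87e-09 for Cyp2f2, 1.02e-07 for Cbr2, 8.63e-06 for Scgb3a1 and 1.46e-09 for Inmt. The test passed for 74.1% of all genes.

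Single arrays stood far from the rest of their group in 11 of 103 groups tested, where chance alone sets about 1 in 20 apart. On the reference arrays these were Abca3 feature 644518_1 in mammary tumor array 4 (0.075) and normal mammary gland array 1 (0.34), Abca3 feature 645057_1 in normal mammary gland array 2 (0.57), and Scgb3a1 in seminal vesicle tumor array 3 (0.51). On the direct arrays Abca3 feature 644518_1 stood apart in her2/neu array 3 (0.41) and feature 645057_1 in Brca1 floxed array 4 (0.40). Sftpc stood apart in ras array 2 (-0.90) and Inmt in p53 floxed array 3 (0.11). Cbr2 stood apart in C3(1) array 5 (0.23), her2/neu array 1 (-0.19) and myc array 3 (0.64).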

How the results depend on the processing

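Of the alternatives to single-gene results on the reference arrays, 1055 kept the direction and side of the threshold, 39 lost the call, 16 gained one and 9 reversed in sign. At feature level a gene counted as called only where all its features passed in 1 direction, so Abca3 dropped out wherever 1 of its features passed alone. Counts of genes called among the 6 that moved by over 1.5 times were these. In lung tumors 3 passed in place of 5 with quantile normalization. In seminal vesicle tumors, in place of 2, 1 passed with array centring, quantile normalization, runs as a random block or at feature level (where Abca3 feature 645057_1 passed alone), 0 with runs as a fixed factor or at an unadjusted p under 0.001 with a 2-fold change, and 0 to 2 with 1 array left out. In mammary tumors, in place of 1, 2 passed with quantile normalization or the replicate block, 3 with only the groups compared or within the shared run, and 1 to 2 with 1 array left out. In normal prostate against normal mammary gland 3 passed at the unadjusted p, in place of 5. Of the direct values 7 passed at feature level in place of 11, where 1 Abca3 feature passed alone in each of the 4 models with an Abca3 call, and 3 at the unadjusted p. Smaller moves included those to 4 in normal prostate against normal mammary gland without any 1 of 7 arrays, to 3 in normal prostate against normal seminal vesicle with runs as a fixed factor, and to 6 in normal lung against normal prostate with only the groups compared or quantile normalization. The replicate numbers do not pair the samples, and with them as a block 3 genes passed in seminal vesicle tumors and 6 in normal lung against normal prostate.

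Signs reversed for Abca3 in lung tumors with quantile normalization (0.076) or feature 644518_1 alone (0.16). With feature 645057_1 alone they reversed in normal lung against normal prostate (0.74), normal prostate against normal mammary gland (-0.083) and Brca1 floxed tumors (0.26). They reversed for Cbr2 in seminal vesicle tumors with runs as a fixed factor (-0.14), and for Sftpc in mammary tumors with 1 array left out (-0.053 to 0.085). The cause was not tested, other than that the 2 Abca3 features differ. Without intensities, signal over background is unknown.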
